A study of Mus musculus with 18 samples.

Results

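The CXC and CX3C chemokines are secreted or membrane-anchored proteins that direct the movement of leukocytes. Described here are 10 of their genes, Cxcl1, Cxcl2, Cxcl5, Cxcl9, Cxcl10, Cxcl11, Cxcl12, Cxcl14, Cxcl16, and Cx3cl1, of the 34989 genes quantified. They were taken by name as members of the family, with no measured value in the rule, and the estimated counts of all transcripts of each gene were summed in each of 18 libraries. The libraries came from LV and RV of C57B/L6 mouse hearts, for which the labels give an age of 12 weeks and the study's methods a younger range, with mice of both sexes. Hearts were flushed with HTK, a cardioplegic preservation solution, and either mounted for perfusion at once (0 h) or kept in cold HTK for 4 or 8 h before mounting. Every heart, the 0 h hearts included, was then perfused ex vivo with Krebs buffer for 60 min, and the buffer carried no blood cells. The groups were thus LV 0 h, LV 4 h, LV 8 h, RV 0 h, RV 4 h, and RV 8 h, with 3 libraries each, and no heart that had not been perfused is among them. The comparisons ask how storage time changed the expression of these genes with reperfusion, and whether LV and RV differed.

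CXC and CX3C chemokines are named for the spacing of their first cysteines, and CX3CL1 is the only known member of the second kind. The CXC chemokines with a glutamate-leucine-arginine motif, in the mouse CXCL1, CXCL2, and CXCL5, bind CXCR2 and draw neutrophils, and their genes are classical targets of NF-kB. CXCL9, CXCL10, and CXCL11 bind CXCR3 on activated T cells and NK cells, and their genes are induced by interferons. CXCL12, made by stromal and endothelial cells, acts through CXCR4 in the heart and marrow without need of inflammation, and CXCL14 is likewise expressed in many resting tissues. CXCL16 and CX3CL1 are made as membrane-anchored proteins, which are shed by the proteases ADAM10 and ADAM17 and bind CXCR6 and CX3CR1. Because the libraries came from whole tissue, a change in the number of cells that express a gene and a change in RNA per cell cannot be told apart.

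The libraries held between 22552581 and 46236771 estimated counts, and no pair was identical. Levels are given as CPM, library-size scaled counts after TMM normalization, and each group is given in the order of library numbers 1, 2, and 3. The summed level of 6 ventricular cardiomyocyte genes ran from 26451 to 63323 CPM and was lowest in RV 8 h number 3. A sum of 4 atrial genes was highest in RV 8 h number 1, at 799.6 CPM against 119 and 221 in the other RV 8 h libraries. The summed level of 4 Y-linked genes was between 4.63 and 6.78 CPM in number 3 of LV and RV at 4 and 8 h and in number 2 of LV and RV at 0 h, and between 133 and 194 CPM in the other 12 libraries. Libraries numbered 3 of the stored groups stood apart in several of the genes below, and results that rest on them are given with and without them.

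The genes of the CXCR2 ligands and those of the CXCR3 ligands form separate clusters on chromosome 5 of GRCm38. Cxcl5 (ENSMUSG00000029371.7) lies at 90759360 to 90761624, Cxcl1 (ENSMUSG00000029380.11) at 90891241 to 90893115, and Cxcl2 (ENSMUSG00000058427.10) at 90903871 to 90905938, all on the plus strand. Cxcl9 (ENSMUSG00000029417.9) at 92321347 to 92328079, Cxcl10 (ENSMUSG00000034855.13) at 92346638 to 92348889, and Cxcl11 (ENSMUSG00000060183.6) at 92359544 to 92365485 lie on the minus strand. The other members are on chromosomes 6 (Cxcl12, ENSMUSG00000061353.11), 13 (Cxcl14, ENSMUSG00000021508.11), 11 (Cxcl16, ENSMUSG00000018920.11), and 8 (Cx3cl1, ENSMUSG00000031778.13). The annotation types Cxcl11 as a polymorphic pseudogene, a gene that is intact in some mouse strains and disrupted in others. The levels of Cxcl11 below are of RNA only, and whether these mice make a working CXCL11 protein was not measured.

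The DNA before the start of Cxcl1 and Cxcl2, and of Cxcl9 and Cxcl10, is shown because the neutrophil-attracting members moved together in these data, as did the interferon-induced members. RefSeq promoter windows of GRCm38.p6 were matched by symbol for 7 of the 10 members, all but Cxcl5, Cxcl11, and Cxcl16. The 250 bases before the start were searched on both strands for the NF-kB consensus and for the core of the interferon-stimulated response element, GAAANNGAAA, in which N is any base. The first was found in 7.01% and the second in 3.04% of the 27025 windows searched. Matches are in capitals, overlapping matches are joined, and the bases that GENCODE already counts as transcribed are left off. The windows printed are chr5:90890995-90891240 and chr5:90903649-90903870 on the plus strand, and chr5:92328080-92328329 and chr5:92348890-92349139 on the minus strand, each written 5′ to 3′ along its gene.
Cxcl1: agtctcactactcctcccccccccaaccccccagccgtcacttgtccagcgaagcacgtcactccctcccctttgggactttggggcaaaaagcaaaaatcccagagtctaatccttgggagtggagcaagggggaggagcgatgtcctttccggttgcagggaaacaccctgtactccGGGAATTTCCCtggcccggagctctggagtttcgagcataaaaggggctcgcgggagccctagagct
Cxcl2: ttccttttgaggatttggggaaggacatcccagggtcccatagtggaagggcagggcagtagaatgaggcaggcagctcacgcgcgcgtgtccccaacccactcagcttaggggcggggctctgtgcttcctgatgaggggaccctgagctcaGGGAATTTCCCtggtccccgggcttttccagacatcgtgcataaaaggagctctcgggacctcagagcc
Cxcl9: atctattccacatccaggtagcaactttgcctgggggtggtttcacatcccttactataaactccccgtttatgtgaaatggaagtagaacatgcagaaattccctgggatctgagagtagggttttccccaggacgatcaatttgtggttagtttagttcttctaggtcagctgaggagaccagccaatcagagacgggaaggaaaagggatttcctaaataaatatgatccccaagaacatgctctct
Cxcl10: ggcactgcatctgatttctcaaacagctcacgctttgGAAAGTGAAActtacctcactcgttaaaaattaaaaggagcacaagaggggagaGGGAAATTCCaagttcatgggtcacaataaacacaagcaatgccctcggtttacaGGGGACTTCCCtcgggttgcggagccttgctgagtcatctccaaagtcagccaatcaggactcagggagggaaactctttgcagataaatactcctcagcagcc
Cxcl1 and Cxcl2 each held 1 NF-kB match, of the same 11 letters in both. The match of Cxcl1 lay 71 to 61 bases before the RefSeq start and that of Cxcl2 97 to 87 bases before it. Cxcl10 held 2 NF-kB matches and 1 match to the response element, and Cxcl9 held neither set of letters in this window. Of the other windows, that of Cxcl14 held 1 match to the response element and those of Cxcl12 and Cx3cl1 held none. A match is a description of letters, and binding was not measured.

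After cold storage most of these chemokines lay above their 0 h levels, and Cxcl12 lay below. In LV, edgeR called 3 of the 10 members higher after 4 h, where 2.4% of all genes tested were called higher, and 7 after 8 h, where 5.46% were. In RV after 4 h, 7 members were called higher, where 6.17% of all genes were, and Cxcl12 was called lower, where 3.91% were. In RV after 8 h, 9 members were called higher (13.0% of all genes) and Cxcl12 again lower (5.26%). A call required a Benjamini-Hochberg adjusted p under 0.1 over all genes tested and a fold change over 1.5. The median log2 fold change of the members at 4 and 8 h was 1.74 and 1.78 (LV), and 2.05 and 2.41 (RV). Over all genes tested, the LV medians were -0.0044 and -0.017 and the RV medians 0.0034 and -0.072. With the replicate number as a block, the genes called lower in RV after 8 h rose from 769 to 1288 of 14622, while the members called stayed at 9 higher and 1 lower. The storage contrasts at 4 and 8 h share the 0 h libraries of a ventricle, so they are not independent of each other.

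The number of members called rested on single libraries, more in LV than in RV, and the number over all genes also varied. After 4 h in LV, 0 members were called by edgeR without LV 0 h number 2, LV 0 h number 3, LV 4 h number 1, or LV 4 h number 3, with 7, 9, 9, and 8 of them at an unadjusted p under 0.05. Over all genes tested these fits called 14, 41, 72, and 78 higher, against 349 with all libraries. Without LV 8 h number 3, which enters only the estimate of spread, 7 members were called, with 669 of all genes higher and 166 lower. After 8 h in LV, 0 members were called without LV 0 h number 2 (7 at an unadjusted p under 0.05), only Cxcl14 without LV 0 h number 3, and only Cxcl14 and Cxcl16 without LV 8 h number 3. Over all genes these fits called 130, 234, and 347 higher, against 795 with all libraries. In RV after 4 h, Cxcl5 and Cxcl16 (higher) and Cxcl12 (lower) were called without RV 0 h number 2 or without RV 0 h number 3. Over all genes those fits called 235 and 273 higher and 86 and 79 lower, against 902 and 572 with all libraries. In RV after 8 h, between 7 and 10 members were called whichever library was left out. Over all genes, 1025 to 2625 were called higher in these fits. DESeq2 called 6 members higher and 1 lower in LV after 4 h, and 6 higher after 8 h. Of 22769 genes in LV it called 693 higher and 219 lower after 4 h, and 1161 higher after 8 h. In RV it called 6 members higher at 4 h and 7 at 8 h, with Cxcl12 lower at both. Of 22800 genes in RV it called 1205 higher and 756 lower after 4 h, and 2226 and 806 after 8 h. It gave no adjusted p for Cxcl9 and Cxcl11.

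**Figure D1:**
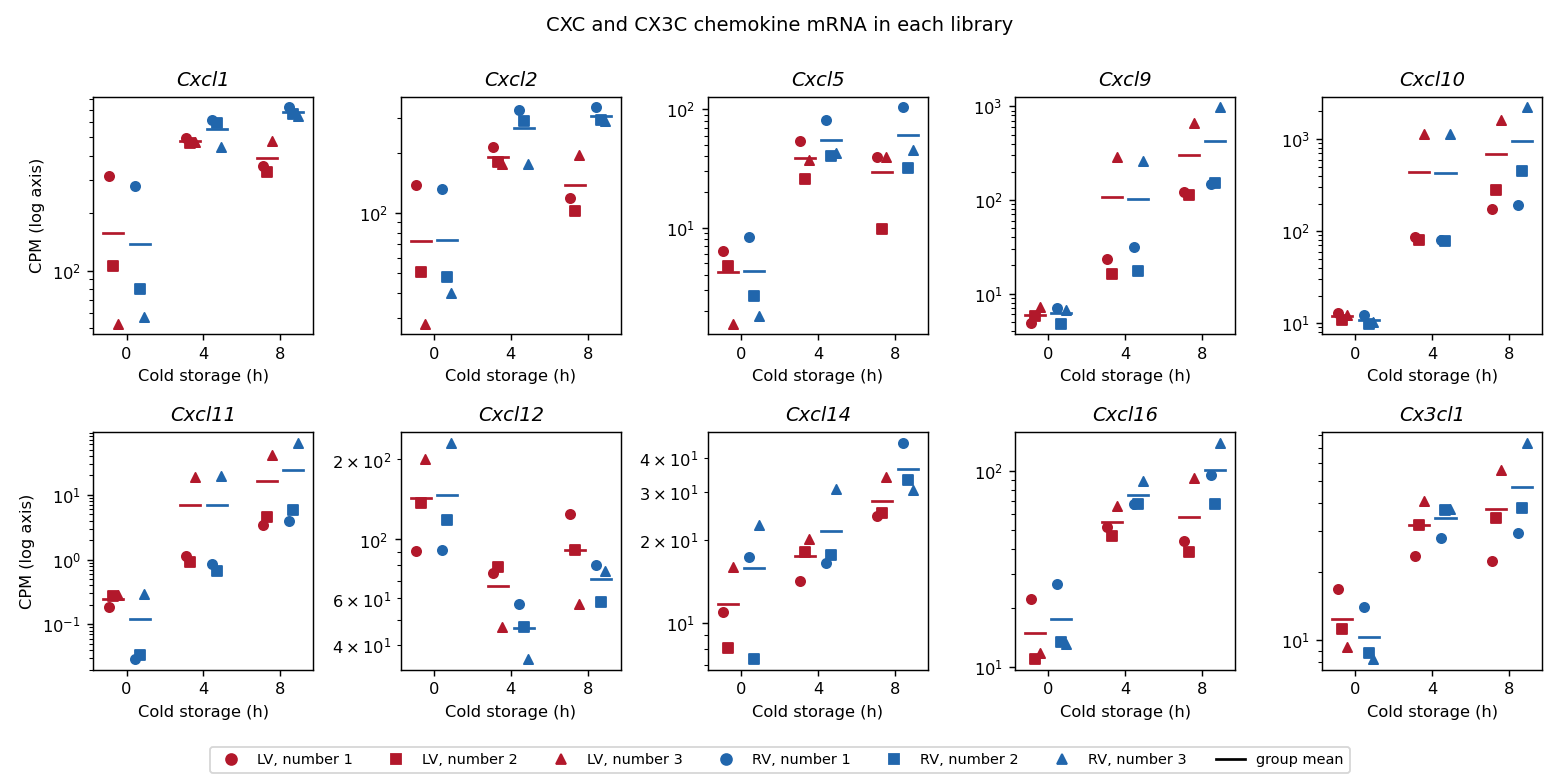
Level of each member in CPM on a log axis, by hours of cold storage. Points are single libraries (red, LV; blue, RV; circle, square and triangle for numbers 1, 2 and 3) and lines are group means. Cxcl1 and Cxcl2 spread widely at 0 h, and Cxcl9, Cxcl10 and Cxcl11 are highest in number 3 at 4 and 8 h in both ventricles.

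Of the neutrophil-attracting members, Cxcl1 was the most abundant. In LV its level was 312, 105, and 52.6 CPM at 0 h, 499, 467, and 471 after 4 h, and 355, 329.9, and 481 after 8 h. In RV it was 278, 80.4, and 57.2 CPM at 0 h, 616, 598, and 448 after 4 h, and 718, 665, and 646 after 8 h. Each of the 12 stored libraries exceeded the highest 0 h library of its ventricle, and the 0 h libraries spread far more widely than the stored ones, with number 1 high in both LV and RV. The change was called in RV, with log2 fold changes of 2.01 (SE 0.51, edgeR adjusted p = 0.0524) after 4 h and 2.30 (SE 0.52, adjusted p = 0.0205) after 8 h. In LV it was 1.61 (SE 0.52, adjusted p = 0.184) after 4 h and 1.31 (SE 0.52, adjusted p = 0.174) after 8 h, and was not called. Without LV 0 h number 1, edgeR called Cxcl1 in LV at both times.

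Cxcl2, another CXCR2 ligand, followed Cxcl1 at a lower level. Its levels in LV were 138, 50.9, and 28.0 CPM at 0 h, 215, 181, and 177 after 4 h, and 119, 102, and 197 after 8 h. RV held 132, 47.8, and 39.8 CPM at 0 h, 332, 292, and 178 after 4 h, and 340.3, 296, and 292 after 8 h. In LV the 8 h libraries overlapped the 0 h libraries, whereas in RV both stored groups lay above all 0 h libraries. The log2 fold change was 1.88 (SE 0.44, adjusted p = 0.0399) and 2.08 (SE 0.44, adjusted p = 0.0165) in RV after 4 and 8 h, both called. In LV it was 1.40 (SE 0.50, adjusted p = 0.225) and 0.95 (SE 0.50, adjusted p = 0.283).

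Cxcl5 was the scarcest of the 3 and had the largest fold changes. In LV its level was 6.34, 4.73, and 1.56 CPM at 0 h, 54.1, 25.8, and 37.2 after 4 h, and 39.6, 9.80, and 39.7 after 8 h. In RV it was 8.42, 2.67, and 1.80 CPM at 0 h, 81.0, 40.5, and 43.0 after 4 h, and 103, 31.9, and 45.0 after 8 h. No stored library overlapped the 0 h libraries of its ventricle, although LV 8 h number 2 came close. Cxcl5 was called in all 4 comparisons, with log2 fold changes of 3.20 (SE 0.63, adjusted p = 0.0498) and 2.81 (SE 0.62, adjusted p = 0.0459) in LV and 3.68 (SE 0.65, adjusted p = 0.0165) and 3.80 (SE 0.66, adjusted p = 0.00768) in RV.

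With all libraries, the interferon-induced members had the largest fitted fold changes of the 10, and after storage they differed most between libraries of one group. After 4 h this order turned without the stored libraries numbered 3, where Cxcl5 had the largest log2 fold change of the 10 in LV (3.22) and in RV (3.82). Cxcl9 in LV was at 4.83, 5.77, and 7.16 CPM at 0 h, 23.5, 16.3, and 286 after 4 h, and 120.5, 112, and 666 after 8 h. Cxcl9 in RV was at 6.99, 4.77, and 6.73 CPM at 0 h, 31.3, 17.5, and 261 after 4 h, and 146, 152, and 975 after 8 h. The 0 h libraries were close to each other, every stored library was above them, and number 3 was 14.3 times the mean of numbers 1 and 2 in LV 4 h, 5.72 times in LV 8 h, 10.7 times in RV 4 h, and 6.53 times in RV 8 h. The log2 fold change of Cxcl9 was 4.20 (SE 1.20, adjusted p = 0.139) after 4 h and 5.67 (SE 1.28, adjusted p = 0.0484) after 8 h in LV. In RV it was 4.09 (SE 1.15, adjusted p = 0.0708) and 6.15 (SE 1.27, adjusted p = 0.0145).

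Cxcl10 was at higher levels, and number 3 was again the highest library of each stored group. In LV 0 h it was at 13.0, 10.9, and 12.2 CPM, in LV 4 h at 85.6, 81.3, and 1138, and in LV 8 h at 176, 278, and 1633. In RV 0 h it was at 12.2, 9.92, and 10.3 CPM, in RV 4 h at 81.0, 77.5, and 1136, and in RV 8 h at 193, 447, and 2213. The LV and RV libraries of one number lay close together at 0 and 4 h, so that the spread was between numbers rather than between ventricles. After 4 h the log2 fold change was 5.18 (SE 1.29, adjusted p = 0.0989) in LV and 5.34 (SE 1.32, adjusted p = 0.048) in RV. After 8 h it was 5.86 (SE 1.33, adjusted p = 0.0486) in LV and 6.51 (SE 1.39, adjusted p = 0.0169) in RV.

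Cxcl11 was at the limit of detection without storage, with 9.04, 8.17, and 9.06 estimated counts in LV 0 h and 1.06, 1.00, and 9.01 in RV 0 h. After 4 h it reached 1.12, 0.93, and 19.0 CPM in LV and 0.85, 0.66, and 19.5 CPM in RV. After 8 h it was at 3.39, 4.58, and 41.4 CPM in LV and 3.88, 5.78, and 63.4 CPM in RV. All stored libraries were above the 0 h libraries, with number 3 again far above the others. The fitted log2 fold change was 6.08 (SE 1.62, adjusted p = 0.0755) in LV and 7.71 (SE 1.99, adjusted p = 0.0345) in RV after 8 h, and it rests on the few counts at 0 h. After 4 h in LV it was 4.84 (SE 1.59, adjusted p = 0.187). After 4 h in RV it was 5.88 (SE 1.95, adjusted p = 0.112) and was not called. With the replicate number as a block the edgeR adjusted p was 0.00093, but this block joins different hearts across storage times. That value too rests on the few counts at 0 h.

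The stored libraries numbered 3 also carried the size of these changes, although not their direction. Without them, in a fit chosen after the data had been seen, Cxcl9, Cxcl10, and Cxcl11 had log2 fold changes in LV of 1.76, 2.79, and 2.08 after 4 h and 4.29, 4.22, and 4.02 after 8 h, with edgeR adjusted p between 6.55e-05 and 0.0164. In RV the values were 2.0, 2.88, and 2.67 after 4 h and 4.59, 4.88, and 5.30 after 8 h, with adjusted p between 0.000109 and 0.0466. The libraries left out were those highest in these genes, so these adjusted p rest on a spread narrowed by choice. These 4 libraries had low Y-linked levels, and so did LV 0 h number 2 and RV 0 h number 2, in which Cxcl10 was at 10.9 and 9.92 CPM, near the other 0 h libraries. Their T and NK cell marker sum was 3.86 and 4.50 CPM at 4 h, against 1.09 to 1.83 in the other 4 h libraries, and 1.72 and 2.52 CPM at 8 h, against 1.48 to 2.09. Of the genes in this sum only Cd3d passed 0.848 CPM in any library, with a highest level of 3.43 CPM. Cd3e did not pass 0.111 CPM and Nkg7 did not pass 0.167 CPM. What sets these libraries apart was not tested. In LV after 4 h the fit without them called 6 members higher, Cxcl5, Cxcl9, Cxcl10, Cxcl11, Cxcl16, and Cx3cl1, where 4.5% of all genes were called higher.

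**Figure D2:**
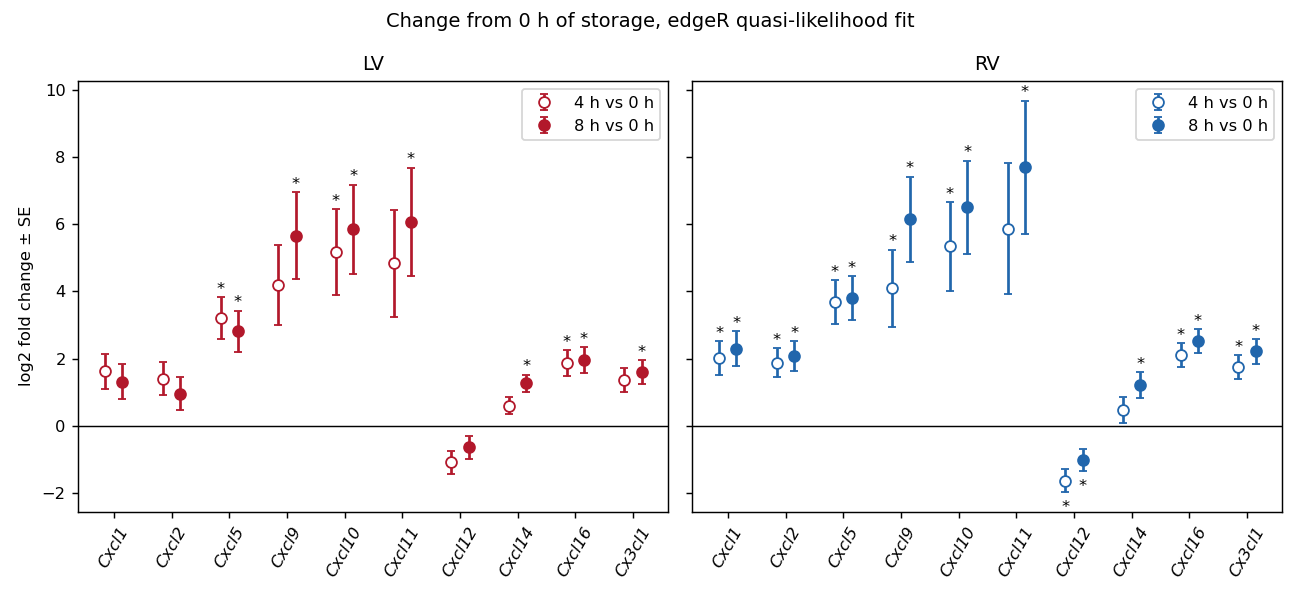
Log2 fold change of each member from 0 h with its standard error, in LV and RV (open points, 4 h; filled points, 8 h). An asterisk marks a call. Of the 10 members, only Cxcl12 lies below 0, and the standard errors of Cxcl9, Cxcl10 and Cxcl11 are the widest.

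Of the homeostatic members, Cxcl12 fell and Cxcl14 rose. Cxcl12 in LV was at 90.6, 137, and 202 CPM at 0 h, 74.7, 78.9, and 46.9 after 4 h, and 125, 91.7, and 57.0 after 8 h. Cxcl12 in RV was at 91.1, 118, and 231 CPM at 0 h, 57.0, 46.99, and 35.5 after 4 h, and 79.9, 58.1, and 75.9 after 8 h. In RV every stored library was below every 0 h library, and in LV this held after 4 h but not after 8 h. The log2 fold change in RV was -1.64 (SE 0.34, adjusted p = 0.0265) after 4 h and -1.03 (SE 0.33, adjusted p = 0.074) after 8 h, both called. In LV it was -1.10 (SE 0.35, adjusted p = 0.181) and -0.65 (SE 0.35, adjusted p = 0.295). Endothelium, a known source of Cxcl12, had a marker sum of 6 genes between 684 and 1061 CPM at 0 h and between 489 and 1093 CPM after storage, and 1 of its 6 genes was called lower, in RV after 4 h. Of all genes, 3.91% were called lower there. The part of endothelial content in the level of Cxcl12 was not tested.

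Cxcl14 was called at 8 h only, in both ventricles. It was at 11.0, 8.07, and 16.0 CPM in LV 0 h, 14.2, 18.1, and 20.2 in LV 4 h, and 24.6, 25.2, and 34.0 in LV 8 h. The RV levels were 17.4, 7.38, and 22.8 CPM at 0 h, 16.6, 17.6, and 30.8 after 4 h, and 45.3, 33.3, and 30.6 after 8 h. The 4 h libraries overlapped the 0 h libraries in both ventricles, and the 8 h libraries did not. The log2 fold change after 8 h was 1.26 (SE 0.25, adjusted p = 0.0348) in LV and 1.21 (SE 0.39, adjusted p = 0.0726) in RV.

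The membrane-anchored members rose in both ventricles with little overlap between libraries. Cxcl16 was at 22.2, 11.0, and 11.8 CPM in LV 0 h, 52.0, 46.6, and 66.5 in LV 4 h, and 44.0, 38.7, and 92.0 in LV 8 h. In RV it was at 26.5, 13.4, and 13.2 CPM at 0 h, 68.0, 68.1, and 88.7 after 4 h, and 95.1, 67.5, and 139 after 8 h. No stored library overlapped the 0 h libraries of its ventricle, and all 4 comparisons were called. The log2 fold change was 1.87 (SE 0.38, adjusted p = 0.0565) and 1.95 (SE 0.38, adjusted p = 0.0319) in LV and 2.10 (SE 0.35, adjusted p = 0.0136) and 2.52 (SE 0.36, adjusted p = 0.00368) in RV.

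Cx3cl1, or fractalkine, which holds leukocytes to endothelium through CX3CR1, was at 16.7, 11.2, and 9.36 CPM in LV 0 h, 23.4, 32.2, and 40.7 in LV 4 h, and 22.4, 34.4, and 56.2 in LV 8 h. In RV it was at 13.9, 8.80, and 8.26 CPM at 0 h, 28.1, 37.2, and 37.5 after 4 h, and 29.4, 37.9, and 73.5 after 8 h. Every stored library was above every 0 h library of its ventricle. It was called in LV after 8 h (log2 fold change 1.60, SE 0.36, adjusted p = 0.0471) and in RV after 4 h (1.74, SE 0.36, adjusted p = 0.0271) and 8 h (2.21, SE 0.37, adjusted p = 0.00665). In LV after 4 h it was not called (1.37, SE 0.35, adjusted p = 0.11).

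Between 4 and 8 h no member was called in the fit with all libraries. In this comparison edgeR called 0 of the 10 members in LV, with 1 (Cxcl14) at an unadjusted p under 0.05, and 0 in RV, with 0 at that p. DESeq2 also called 0 in both, with 1 and 0 members at an unadjusted p under 0.05, and with the replicate block edgeR called 0, with 3 in LV and 3 in RV. The log2 change from 4 to 8 h was -0.30 (SE 0.51), -0.45 (SE 0.50), and -0.39 (SE 0.57) for Cxcl1, Cxcl2, and Cxcl5 in LV, and 0.28 (SE 0.49), 0.21 (SE 0.43), and 0.12 (SE 0.58) in RV. For Cxcl9, Cxcl10, and Cxcl11 it was 1.47 (SE 1.06), 0.68 (SE 1.08), and 1.23 (SE 1.20) in LV and 2.06 (SE 1.05), 1.16 (SE 1.11), and 1.83 (SE 1.35) in RV. A fit without the stored libraries numbered 3, chosen after the data had been seen, kept numbers 1 and 2 of each stored group. In LV it called Cxcl9 (2.53, SE 0.22, adjusted p = 0.00639) and Cxcl10 (1.43, SE 0.21, adjusted p = 0.0967) higher at 8 h than at 4 h. It called 0.0409% of all genes higher there. With all libraries the edgeR adjusted p of Cxcl9 and Cxcl10 was 0.707 and 0.854. In RV the same fit called Cxcl9 (2.59, SE 0.29, adjusted p = 0.0694), where 0.0136% of all genes were called higher. With all libraries its edgeR adjusted p in RV was 0.599. The libraries left out were those highest in these genes, so the adjusted p without them rest on a spread narrowed by choice.

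A score set the classes side by side in each library. For each class it is the mean log2 CPM of the 3 genes minus its mean over the 0 h libraries of the same ventricle, and no test was made of it. The neutrophil-attracting score was 2.61, 2.14, and 2.30 in LV 4 h, 2.01, 1.23, and 2.40 in LV 8 h, 3.14, 2.73, and 2.38 in RV 4 h, and 3.35, 2.68, and 2.82 in RV 8 h. The interferon-induced score was 2.26, 1.97, and 6.04 in LV 4 h, 3.90, 4.23, and 6.99 in LV 8 h, 2.62, 2.21, and 6.39 in RV 4 h, and 4.48, 5.10, and 7.90 in RV 8 h. The first kept a narrow range over the 12 stored libraries, and the second spanned a wider one. In numbers 1 and 2 at 4 h the neutrophil-attracting score exceeded the interferon-induced score by 0.16 to 0.52, and in the other 8 stored libraries it was lower by 1.14 to 5.08. At 0 h the neutrophil-attracting score was the more variable. Its lowest and highest values were -1.14 and 1.14 for LV, and -0.83 and 1.23 for RV. Those of the interferon-induced score were -0.15 and 0.16 for LV, and -0.35 and 0.45 for RV.

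**Figure D3:**
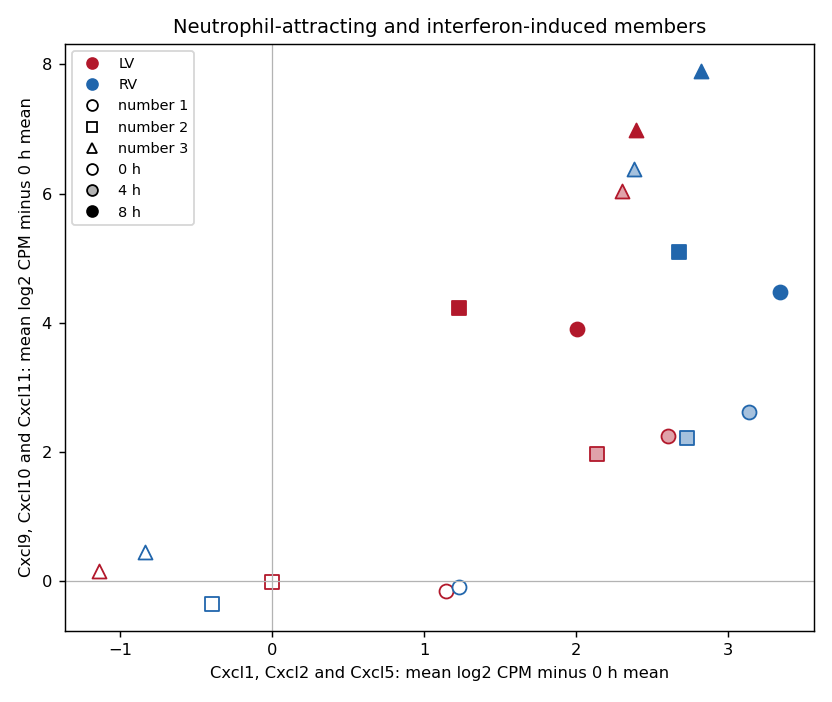
Mean log2 CPM of Cxcl9, Cxcl10 and Cxcl11 (vertical) against that of Cxcl1, Cxcl2 and Cxcl5 (horizontal), each minus its 0 h mean in the same ventricle, for the 18 libraries. Open, pale and filled points are 0, 4 and 8 h (red, LV; blue, RV). The 0 h libraries spread along the horizontal axis and the stored libraries along the vertical axis, with number 3 highest.

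Over the 18 libraries, the neutrophil-attracting members were more like each other than like the interferon-induced members, and the reverse also held. Pearson's r of log2 CPM was 0.977 for Cxcl1 with Cxcl2, 0.936 for Cxcl1 with Cxcl5, and 0.928 for Cxcl2 with Cxcl5. It was 0.977 for Cxcl9 with Cxcl10 and with Cxcl11, and 0.976 for Cxcl10 with Cxcl11. Between these classes r lay between 0.537 and 0.733. Cxcl16 was close to both, at 0.917 with Cxcl1 and 0.883 with Cxcl10, and Cxcl12 had a negative r with all the other members, from -0.354 with Cxcl14 to -0.831 with Cxcl1. The 18 libraries share storage times and, in pairs, numbers, so these are descriptions.

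The genes whose pattern was most like that of Cxcl1 over the 18 libraries were Ccl2, Tnfaip3, Maff, Zc3h12a, and Rel, with r between 0.981 and 0.984. Those most like Cxcl10 were Slfn8, Isg15, Gbp5, Ifit1, and Parp14, with r between 0.991 and 0.992. Those most like Cxcl12 were Ccdc28b, Gipc3, Slc26a10, Cd300lg, and Clec14a (0.942 to 0.952), and those most like Cx3cl1 were Pogk, Ripk2, Picalm, Irak2, and Nfkbie (0.969 to 0.983).

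For comparison between genes, the deposited TPM values, which account for transcript length, were summed per gene. In LV 0 h the order of mean TPM was Cxcl1 (234 ± 214 SD, n = 3), Cxcl2 (92.5 ± 76.3), Cxcl12 (40.3 ± 13.6), Cxcl10 (16.1 ± 1.21), Cxcl16 (9.56 ± 3.61), Cxcl14 (8.73 ± 2.54), Cx3cl1 (6.83 ± 3.16), Cxcl9 (3.79 ± 1.48), Cxcl5 (3.64 ± 2.12), and Cxcl11 (0.137 ± 0.057). The order in RV 0 h was the same. The ranges of neighbours in this order overlapped in 6 of 9 pairs in LV, the exceptions being Cxcl12 over Cxcl10, Cxcl10 over Cxcl16, and Cxcl5 over Cxcl11. In RV they overlapped in 7 of 9 pairs, with Cxcl10 and Cxcl16 also overlapping.

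After 4 h the 3 highest mean TPM values in both ventricles were those of Cxcl1 (681 ± 40.4 in LV, 756 ± 145 in RV), Cxcl10 (525 ± 729 and 510.1 ± 716), and Cxcl2 (241 ± 23.7 and 324 ± 103). After 8 h Cxcl10 was first (726 ± 822 in LV and 958 ± 1076 in RV), ahead of Cxcl1 (475 ± 68.3 and 802 ± 78.4), but its range overlapped that of Cxcl1 in both ventricles. The place of Cxcl10 rested on number 3 at both times. In numbers 1 and 2 Cxcl10 was below Cxcl1 at both times and below Cxcl2 after 4 h. Its ratio to Cxcl1 there was 0.433 and 0.734 for LV 8 h, 0.235 and 0.580 for RV 8 h, 0.145 and 0.151 for LV 4 h, and 0.117 and 0.114 for RV 4 h. Cxcl12, the third highest at 0 h, was seventh in LV and ninth in RV after 4 h, at 18.6 ± 4.69 and 13.9 ± 2.10 TPM.

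The neutrophil-attracting members made up 51.3% to 89.4% of the summed TPM of the 10 genes in the 0 h libraries of both ventricles, and the interferon-induced members 2.72% to 9.90%. In numbers 1 and 2 of the 4 h groups the interferon-induced share was 7.54% to 10.2%, and in numbers 1 and 2 of the 8 h groups 16.8% to 38.4%. In number 3 it was 61.9% in LV 4 h, 61.8% in RV 4 h, 69.9% in LV 8 h, and 70.1% in RV 8 h. Over both ventricles the interferon-induced share ran from 7.54% to 61.9% at 4 h and from 16.8% to 70.1% at 8 h, so the times overlapped. A number does not stand for 1 heart across storage times, so it does not match 4 h libraries to 8 h libraries. The homeostatic share (Cxcl12 and Cxcl14) was 4.64% to 33.7% at 0 h and 0.944% to 4.75% after storage. The ratio of Cxcl10 to Cxcl1 in TPM ran from 0.0368 to 0.229 at 0 h and reached 3.07 in number 3 of both ventricles at 8 h.

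**Figure D4:**
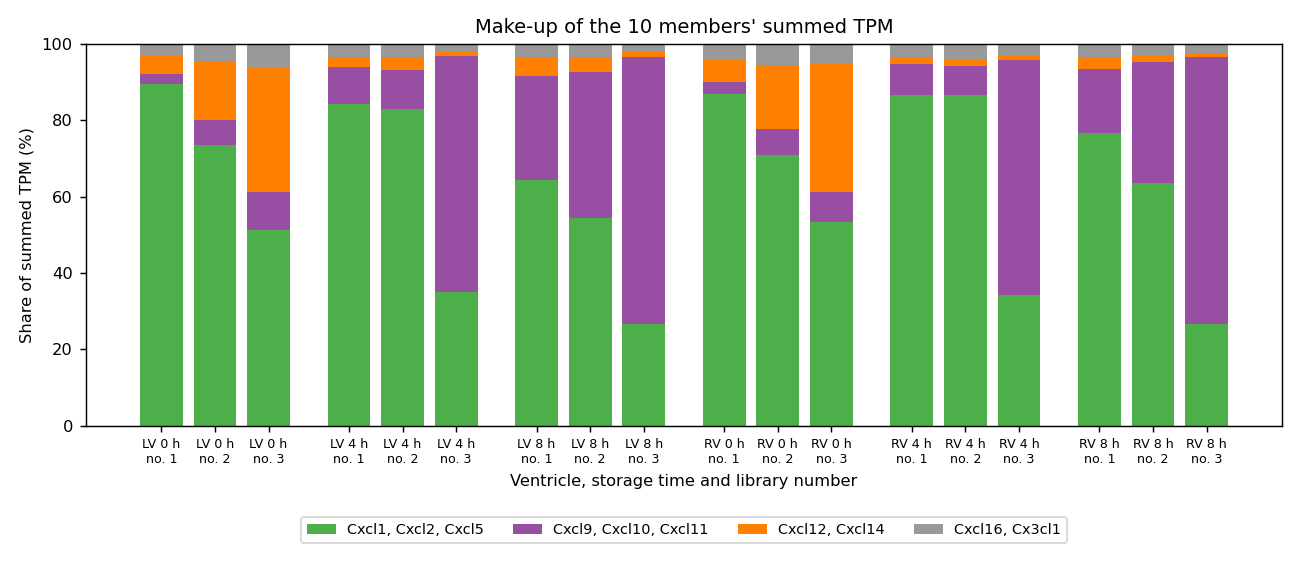
Share of the summed TPM of the 10 members held by each class, in percent, in each library (no. is the library number). The Cxcl9, Cxcl10 and Cxcl11 share is under 10% in all 0 h libraries and over 60% in number 3 at 4 and 8 h.

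No member was called between LV and RV when their libraries were compared as separate groups. At 0, 4, and 8 h edgeR called 0 of the 10 members between LV and RV, with 0, 0, and 1 (Cxcl2 at 8 h) at an unadjusted p under 0.05, and DESeq2 called 0, with 0, 0, and 2. Of all genes, 0.0199% were called lower in LV at 8 h. Same-numbered LV and RV libraries deviated together from their group means, however. With the number as a block, edgeR called 4 members lower in LV than in RV at 8 h, where 6.53% of all genes were called lower, and 0 at 0 and 4 h, with 2 and 3 at an unadjusted p under 0.05. The labels do not say that a number stands for 1 heart, and the study's methods state only that LV and RV were taken from each heart.

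The members called lower in LV at 8 h were the 3 neutrophil-attracting ones and Cxcl16. The log2 ratio of LV to RV in libraries 1, 2, and 3 was -1.02, -1.01, and -0.43 for Cxcl1, with a fitted difference of -0.82 (SE 0.14, adjusted p = 0.00223). For Cxcl2 it was -1.51, -1.53, and -0.57, with a fitted difference of -1.21 (SE 0.20, adjusted p = 0.00176). For Cxcl5 it was -1.39, -1.70, and -0.18, with a fitted difference of -1.07 (SE 0.24, adjusted p = 0.0104). In all 3 genes LV was lower in every pair, and number 3 had the smallest gap. For Cxcl16 the ratios were -1.11, -0.80, and -0.59, and the fitted difference was -0.83 (SE 0.088, adjusted p = 0.000291).

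Cxcl9, Cxcl10, Cxcl11, and Cx3cl1 were also lower in LV at 8 h in every pair, but by less than the 1.5-fold limit. Their fitted differences were -0.42 (SE 0.13, adjusted p = 0.0353), -0.42 (SE 0.10, adjusted p = 0.0142), -0.43 (SE 0.15, adjusted p = 0.0572), and -0.31 (SE 0.084, adjusted p = 0.0227). In total 8 of the 10 members were lower in LV in all 3 pairs at 8 h, against 3 at 4 h and 1 at 0 h. The share of all genes lower in all 3 pairs was not counted, so these counts do not tell the members apart from other genes. At 8 h the edgeR fit with the block had 5551 of 15093 genes at an unadjusted p under 0.05. It called 986 genes lower in LV and 339 higher. The number of members called lower did not change when any pair of 0 or 4 h libraries was left out. Without pair number 3 of 8 h the members called were 5 lower, with Cxcl14, and 1 higher, Cxcl12. The atrial marker sum was high in RV 8 h number 1, and the differences in pair number 2, where it was 263 CPM in LV and 119 CPM in RV, were -1.01 for Cxcl1, -1.53 for Cxcl2, -1.70 for Cxcl5, and -0.80 for Cxcl16, the last smaller in size than the -1.11 of pair number 1. In the same fit 2 of 8 macrophage genes (Cd163 and Mrc1), 1 of 6 endothelial (Vwf), 1 of 5 fibroblast (Tcf21), 1 of 3 T and NK cell (Cd3d), and 1 of 3 epicardial genes (Wt1) were called lower in LV, and 1 of 3 erythroid genes (Hbb-bs) was called higher. Of 3 neutrophil genes tested Csf3r was lower and S100a8 and S100a9 were higher. The part of cell content in these differences was not tested.

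The change from 0 to 8 h differed between LV and RV for some of these genes in the fit with the block. Without it, edgeR called 0 members for the difference in change at 8 h, with 0 at an unadjusted p under 0.05, and so did DESeq2. With it, Cxcl1 (-0.97, SE 0.20, adjusted p = 0.0148), Cxcl2 (-1.09, SE 0.28, adjusted p = 0.0374), and Cxcl16 (-0.60, SE 0.13, adjusted p = 0.0192) had a smaller log2 change in LV than in RV, where 4.72% of all genes were called so. Cxcl10 (-0.58, SE 0.15, adjusted p = 0.044) and Cx3cl1 (-0.57, SE 0.13, adjusted p = 0.0213) passed the adjusted p but not the fold limit. For Cxcl5 the difference was -1.08 (SE 0.41, adjusted p = 0.143). Cxcl1 was called in all 9 fits that left out a pair of libraries, Cxcl16 in 7, and Cxcl2 in 6. Cxcl2 was lost without pair number 1 or 2 of 0 h or number 1 of 8 h (adjusted p up to 0.148), and Cxcl16 without pair number 3 of 0 h or number 1 of 8 h. For the difference in change from 0 to 4 h edgeR called 0 members with and without the block, with 1 (Cx3cl1) and 0 at an unadjusted p under 0.05, and DESeq2 called 0, with 0.

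**Figure D5:**
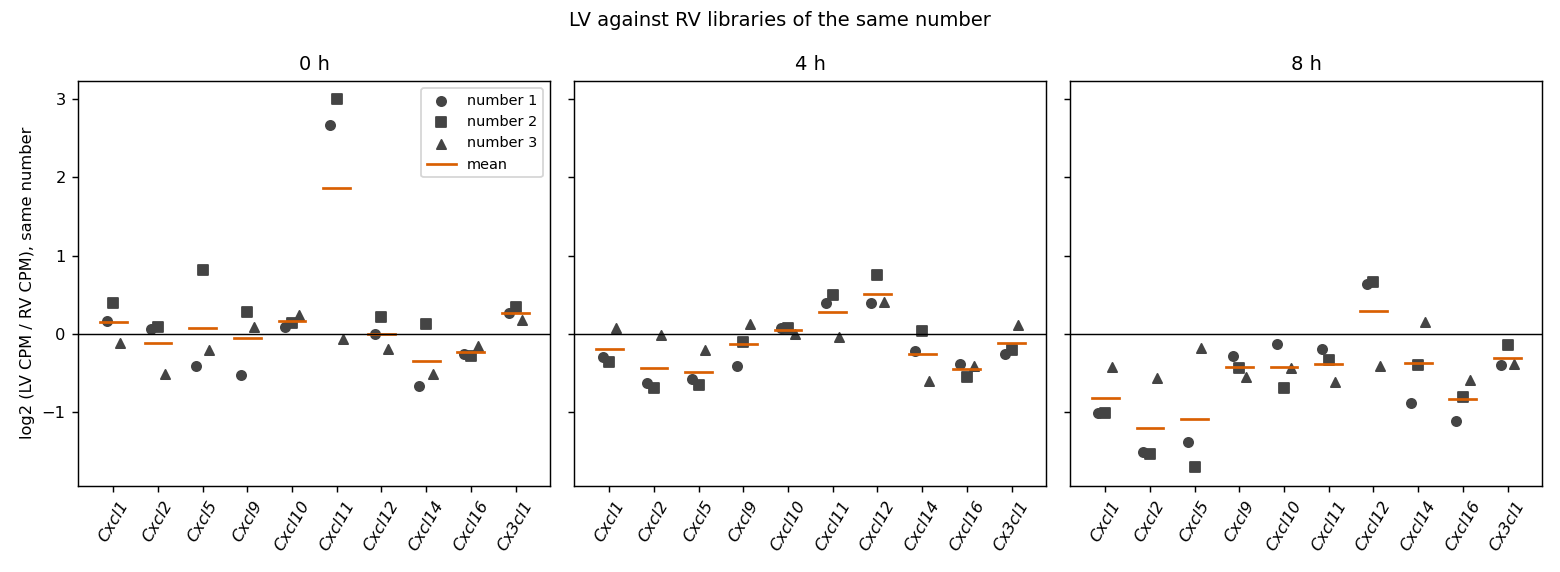
Log2 ratio of LV to RV CPM in libraries of the same number, for each member at 0, 4 and 8 h. Points are pairs and orange lines are means. At 8 h all 3 pairs lie below 0 for 8 members (the share over all genes was not counted), and Cxcl2 has the lowest mean, -1.20.

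The receptors of these ligands differed widely in level. The highest level of Cxcr3, the receptor of CXCL9, CXCL10, and CXCL11, in any library was 0.111 CPM, and that of Cxcr6 was 0.368 CPM. Cxcr2 ran from 0.466 to 3.45 CPM, Cx3cr1 from 0.208 to 2.12 CPM, and Cxcr4 from 1.63 to 9.14 CPM. Ackr3, an atypical receptor of CXCL12 and CXCL11, was much the most abundant, at 70.4 to 157 CPM. Of the 11 receptor genes, 7 passed the filter on low counts, and after 8 h 1 was called higher in LV and 3 in RV, with 0 lower. Of all genes, 5.46% were called higher in LV and 13.0% in RV. Ackr1, an atypical receptor of venular endothelium that binds chemokines without signalling, rose by a log2 fold change of 4.41 (SE 0.94, adjusted p = 0.041) in LV and 4.51 (SE 0.84, adjusted p = 0.01) in RV, from a mean of 0.102 and 0.118 CPM at 0 h to 2.13 and 2.69 CPM. The atypical receptors Ackr2 (1.63, SE 0.36, adjusted p = 0.0188) and Ackr3 (0.89, SE 0.19, adjusted p = 0.0166) rose in RV, and the others were not called.

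Of the neutrophil markers, Csf3r ran from 0.982 to 14.2 CPM, S100a9 from 0 to 6.38 CPM, and S100a8 from 0 to 3.08 CPM. The sum of 8 neutrophil genes was 1.01 to 2.61 CPM at 0 h, 3.51 to 9.14 after 4 h, and 10.1 to 18.8 after 8 h, most of it Csf3r. Ly6g, a defining marker, was at 0 in 17 of 18 libraries, and Camp and Mpo did not pass 0.123 CPM. After 8 h Csf3r, the G-CSF receptor, was called higher in LV (2.52, SE 0.29, adjusted p = 0.00585) and RV (2.88, SE 0.37, adjusted p = 0.00226), and S100a8 and S100a9 were also called in LV, the 3 genes tested there. The erythroid sum of 3 genes, 1.52 to 4.09 CPM at 0 h, was 2.53 to 121 CPM after storage and highest in LV 8 h number 1. The 8 macrophage genes summed to 199 to 598 CPM, and 0 of 8 in LV and 3 of 8 in RV were called higher after 8 h. Of all genes, 5.46% in LV and 13.0% in RV were. The part of leukocyte content in the chemokine levels was not tested.

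Of other CXC chemokines, Cxcl3, a further CXCR2 ligand next to Cxcl1 and Cxcl2 in function, was called in RV after 8 h (log2 fold change 4.26, SE 1.16, adjusted p = 0.0418). Cxcl13, which draws B cells, was called in LV (3.51, SE 1.02, adjusted p = 0.0918) and RV (2.89, SE 0.96, adjusted p = 0.0788) after 8 h from levels under 0.5 CPM. The platelet chemokines Pf4 and Ppbp were not called, and Ppbp did not pass 0.771 CPM in any library. Cxcl15 and Cxcl17 did not pass the filter, and of the 6 genes in this list 3 were tested in LV and 4 in RV. Of 5 shedding and trimming proteases tested, Adam17, which sheds CX3CL1 and CXCL16, was called in RV after 8 h (0.72, SE 0.14, adjusted p = 0.011) and 0 were called in LV, where Adam17 had 0.45 (SE 0.10, adjusted p = 0.0516) and missed the fold limit.

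Genes of the NF-kB pathway and of the interferon pathway moved upward with the members. Of 18 NF-kB pathway genes, all tested, 6 were called higher in LV and 12 in RV after 4 h, and 9 and 14 after 8 h, with 0 lower and a median log2 fold change of 1.13 in LV and 1.83 in RV at 8 h. The largest were Nfkbie, an inhibitor of NF-kB that is itself induced by it (2.58 in LV, 3.04 in RV), and Myd88, an adaptor of Toll-like and IL-1 receptors (2.25 and 3.09). Of 17 interferon pathway genes, 16 were tested, and 3 were called higher in LV and 5 in RV after 4 h, and 9 and 10 after 8 h, with 0 lower and medians of 1.37 and 1.96 at 8 h. The largest were Socs1, a feedback inhibitor of JAK-STAT signalling (4.02 in LV, 5.27 in RV), and Irf7, a transcription factor of the type I interferon response (3.72 and 4.62). Ifnb1, which encodes interferon beta, had log2 fold changes of 1.20 (SE 0.88, adjusted p = 0.433) in LV and 2.13 (SE 1.13, adjusted p = 0.223) in RV after 8 h. In the fit with the block, 12 of the 18 NF-kB genes and 3 of the 16 interferon genes were called lower in LV than in RV at 8 h. Of all genes, 6.53% were.

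The share of retained-intron transcripts was lower after storage in most comparisons of the neutrophil-attracting genes, and the test made could not call any of them. Transcripts annotated as retaining an intron held 21.9% ± 6.44 (SD, n = 3) of the estimated counts of Cxcl1 in LV 0 h, 10.3% ± 0.914 in LV 4 h, and 10.9% ± 1.68 in LV 8 h. In RV the share was 21.9% ± 4.66, 10.1% ± 1.37, and 9.60% ± 1.97. No stored library overlapped a 0 h library of its ventricle, and the exact two-sided permutation p was 0.1 in each of the 4 comparisons, the smallest that 3 against 3 libraries allow. For Cxcl2 the retained-intron share was 23.7% ± 4.36, 17.2% ± 3.57, and 17.7% ± 2.40 in LV and 21.6% ± 5.22, 13.2% ± 3.53, and 12.1% ± 2.12 in RV (exact p = 0.2 after 4 h and 0.1 after 8 h in both ventricles). For Cxcl5 it was 39.0% ± 6.15, 18.1% ± 3.97, and 22.3% ± 3.49 in RV (exact p = 0.1 at both times), and in LV the 0 h libraries spread from 6.36% to 32.9% (exact p = 0.7 and 0.8). Over these 12 tests the Benjamini-Hochberg adjusted p was 0.15 or higher. As no exact p could be under 0.1, no adjusted p could be either, so the test cannot decide whether the share changed. Cxcl12 was counted mostly as its longest transcript, which held 60.1% to 84.4% of its counts in any library.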

How the data were processed

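The 18 libraries, 3 a group, were made from total RNA of LV and RV, from which the study's kit selected mRNA. The authors deposited, for each transcript and library, estimated counts and TPM from Kallisto with GRCm38 transcripts, beside transcript lengths, which entered only the length offsets. The estimated counts of 110203 of 111462 transcripts were summed to genes of GENCODE M21 by identifier and rounded, and reads that fit several genes had been divided between them upstream. Tests used edgeR 4.0.16 in R 4.3.3 (filterByExpr, TMM, quasi-likelihood), on the 9 libraries of a ventricle for storage time and on all 18 between ventricles, and the study's own thresholds on the adjusted p (0.1) and on fold (1.5) defined a call. The test was checked on simulated counts with a fixed spread, in which only genes with higher mean counts were changed. That check does not cover members with few counts or a wide spread between libraries. Log2 CPM used a prior count of 2. Replicates are libraries that the labels number separately. Total counts of 22552581 to 46236771 per library limit the precision of genes with few counts, of which estimated counts are not independent molecules. The deposited TPM values are scaled within a library and were used only for levels between genes and for shares.

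Whether libraries of the same number deviate together from their group means was checked across genes. Every pair had a correlation over 0.1 between LV and RV (0.325 to 0.697) and between 4 h and 8 h. The same held between 0 h and the stored RV libraries (0.111 to 0.276). Between 0 h and the stored LV libraries the correlations ranged from -0.0191 to 0.261. The main tests had no block, and the replicate block was fitted as an alternative. Each heart had 1 storage time, so a number does not stand for 1 heart across storage times. The Y-linked sum was 145 CPM in RV 0 h number 3, and 4.88 and 6.78 CPM in RV 4 h and 8 h number 3.

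All 10 members were described, and other lists were named by at most 4 genes with the largest changes at 8 h among those called. Other genes and the values of Ifnb1, Pf4, Ppbp and the receptors were named after their values were seen. Likeness was ranked by Pearson's r of log2 CPM over 18 libraries among the genes tested. The members, lists and tests were chosen with earlier results of these data known. Alternatives were DESeq2 1.42.0, length offsets, RLE scaling, the unfiltered table, all 18 libraries in the fit, the replicate block, each library left out, TPM for CPM other scores and, added after seeing the data, the fit without stored libraries numbered 3. Transcripts were summed with pandas 2.3.3 in Python 3.11.15.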

Additional observations from a re-analysis of the deposited data

Results flagged for a closer look

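The change from 0 to 8 h of storage was smaller in LV than in RV for 3 members, in the fit with all 18 libraries and the replicate number as a block, which tests the difference itself. The difference in log2 fold change, LV minus RV, was -0.97 for Cxcl1, -1.09 for Cxcl2, and -0.60 for Cxcl16. In the fit without the block the differences were -0.98, -1.13, and -0.55 and none was called.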

How the results depend on the processing

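The number of members called depended most on the libraries in LV. After 4 h in LV, 3 members were called, against 7 with DESeq2, 5 with no filter on low counts, 5 with the replicate block, and 6 without the stored libraries numbered 3, an alternative chosen after seeing the data. With 1 library left out at a time, the counts ran from 0 to 7 for LV 4 h and for LV 8 h, from 3 to 9 for RV 4 h, and from 7 to 10 for RV 8 h. Over all genes, those called higher ran from 14 to 669, 130 to 1422, 235 to 1219, and 1025 to 2625 in the same order. For 8 h against 4 h the members called were 0 with all libraries and 2 in LV and 1 in RV without the stored libraries numbered 3, and 0 whichever single library was left out. Between LV and RV at 8 h, 0 members were called and 4 with the replicate block, and for the difference in change from 0 to 8 h 0 and 3. With pairs of same-numbered libraries left out in turn under the block, these counts ran from 4 to 6 and from 2 to 5. Beyond these, the replicate block moved no count of members by more than 1.5 times. In LV, where not every correlation between 0 h and stored libraries passed 0.1, it added Cxcl9 and Cxcl11 after 4 h and left the 7 members called after 8 h. In the fit without the block, the LV to RV difference at 8 h ran with 1 library left out from -1.87 to 1.02 for Cxcl9, from -2.07 to 1.14 for Cxcl10, from -2.62 to 1.78 for Cxcl11, and from -0.73 to 0.17 for Cx3cl1. The lowest values were without LV 8 h replicate 3 and the positive ones without RV 8 h replicate 3, and Cxcl10 was also positive (0.027) without LV 8 h replicate 1. None of these was called. The log2 fold changes of single members at 4 and 8 h kept their direction under all alternatives. The difference of the class scores kept its sign with the median over genes and without Cxcl5 and Cxcl11. With 3 libraries a group, values of 0 h Cxcl11 at 1 to 9 counts are the least precise.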
